A study of Homo sapiens with 16 samples.

Results

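Transcript levels of breast epithelial cells that carried the T288P allele of PCSK5 and grew in mature GDF11 (T288P+GDF11) were compared with those of cells that carried the wildtype allele and grew without added ligand (WT). The comparison rests on 8 of the 16 libraries of the series, 4 wells of T288P+GDF11 and 4 wells of WT, chosen by their labels alone. It was read across all 16790 genes that passed a filter on low counts. The 2 conditions differ both in the allele and in the ligand, so within this comparison an effect of the allele line and an effect of the ligand cannot be told apart. For that reason the untreated T288P wells, and at times the M452I wells, are set beside it below for some genes and for the lipid synthesis list, 4 wells each. The other genes and lists are described against WT only, so for them the allele and the ligand stay mixed.

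The cells belong to MCF10DCIS.com, a human line of premalignant breast epithelium that comes from MCF10A. A clone without functional PCSK5 had been made with Cas9 and a guide against exon 4, and its recovery had been aided by GDF11. That single clone then received a V5-tagged, guide-resistant PCSK5 allele from a tetracycline-regulated pSLIK vector, and hygromycin selection gave 1 polyclonal line for T288P, 1 for M452I and 1 for WT. In every condition 5000 cells were seeded per well on matrigel, which lets them grow as 3D clusters. The medium held EGF at 5 ng/ml and matrigel of reduced growth factor content at 2%. Doxycycline, which switches the allele on, was present at 1 µg/ml from day 4, and RNA was taken on day 8. The T288P+GDF11 wells had 250 ng/ml recombinant mature GDF11 throughout. T288P, M452I and WT had none added. The replicates are wells of 1 line per allele, so the p-values measure the spread between wells and not that between independently made lines.

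GDF11 belongs to the ligands of the TGF-beta family. Its precursor is cut by proprotein convertases, PCSK5 among them. The mature dimer binds a type II activin receptor together with a type I receptor, which phosphorylates SMAD2 and SMAD3. These enter the nucleus with SMAD4 and change transcription, and inhibitors such as SMAD7, SKIL and PMEPA1 feed back on the signal. In epithelial cells, ligands of this branch are known for inducing matrix and mesenchymal genes and for lowering epithelial junction genes.

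The T288P+GDF11 libraries held 29.5 to 42.5 M counts and the WT libraries 32.7 to 44.3 M. Genes detected numbered 24318 to 24696 in T288P+GDF11 and 22490 to 25335 in WT. On the first principal component of log2 counts per M counts (CPM) over all 16 libraries, T288P+GDF11 wells scored 44.1 to 63.6 and WT wells -39.6 to -5.03, with WT replicate 3 the nearest to T288P+GDF11. M452I replicate 4, at 37.5, and T288P replicate 1, at -43.0, stand apart from their own groups (the other M452I wells -44.7 to -32.9, the other T288P wells 2.15 to 8.81). Neither enters the contrast itself, and without both the number of called genes was 6249 rather than 4846. Ribosomal protein genes took 10.7% to 12.5% of counts in T288P+GDF11 and 10.2% to 11.7% in WT. Of the 8 basal-like epithelial markers, all were detected at 1 CPM or more. Their summed level was 10072 to 11443 CPM in T288P+GDF11 and 13153 to 14269 CPM in WT.

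The data separate the 2 conditions widely. Of the 16790 genes, 4846 (28.9%) were called by edgeR's two-sided quasi-likelihood test at an adjusted p under 0.05. In T288P+GDF11, 2319 (13.8%) were higher and 2527 (15.1%) lower than in WT, so 47.9% of the calls were higher. At least 2-fold were 1109 of them (6.61%), 713 (4.25%) higher and 396 (2.36%) lower, and at least 4-fold were 122 higher and 76 lower. The 4 wells of each condition did not overlap for 5892 genes (35.1%), 4439 of which were called. The median log2 fold change was 0.72 for genes called higher, -0.54 for genes called lower and 0.02 over all genes tested. The split of calls depended on the scaling. With upper quartile factors it was 2865 higher and 2072 lower (58.0% higher). With library totals alone it was 3425 higher and 1441 lower (70.4% higher). Library totals alone move the median of all genes to 0.20, so changes near that size are to be read relative to it.

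**Figure D1:**
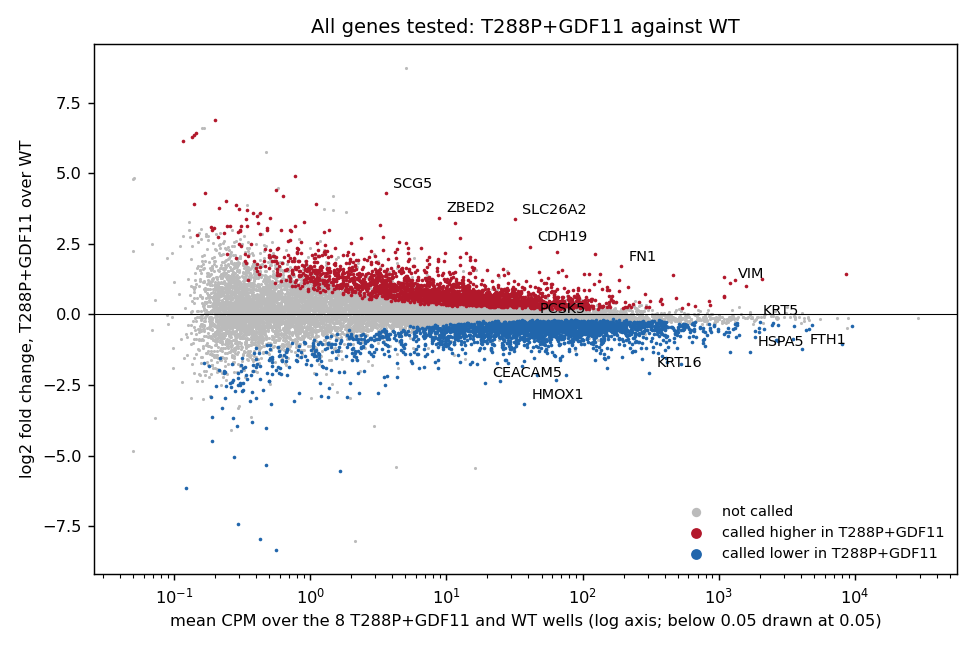
Each point is 1 of the 16790 genes tested, by its mean CPM over the 8 wells (log axis) and its log2 fold change of T288P+GDF11 over WT, coloured where called. Red points crowd between 1 and 100 CPM and blue points extend to the most abundant genes, where 708 of 1693 genes at 100 CPM or more were called lower and 97 higher.

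Direction went with abundance. Among the 1693 genes with a mean of 100 CPM or more, 708 were called lower and 97 higher, and 47.5% were called in all. Between 10 and 100 CPM, 1394 of 6438 were lower and 1081 higher. Between 1 and 10 CPM the order was the other way round, with 315 of 4696 lower and 984 higher. Below 1 CPM only 6.74% were called, 110 lower and 157 higher of 3963. Levels are relative within a library. At 100 CPM or more, 607 were lower and 135 higher with upper quartile factors, and 445 lower and 209 higher with library totals alone. Between 10 and 100 CPM both turned the order, to 1099 lower and 1386 higher with upper quartile factors and 737 lower and 1734 higher with library totals alone. Fewer cells of a type and less RNA per cell cannot be told apart in these bulk wells.

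Transcripts of the convertases and of GDF11 are given first, and they cannot serve as a check of the labels. PCSK5 (ENSG00000099139, chromosome 9, 75890644 to 76362339; GENCODE 29, GRCh38) had 49.2, 25.3, 42.1 and 46.3 CPM in the T288P+GDF11 wells, against 53.3, 37.3, 57.8 and 33.1 CPM in the WT wells. The groups overlapped, and the test did not call it (log2 fold change -0.16 with SE 0.33, adjusted p = 0.765 by edgeR). Gene counts add up the introduced allele and the edited endogenous locus, and they say nothing of enzyme activity. GDF11 as the cells transcribe it (ENSG00000135414, chromosome 12, 55743280 to 55757278) had 7.32, 7.54, 5.95 and 7.37 CPM in the T288P+GDF11 wells, against 8.02, 5.63, 5.48 and 4.09 CPM in the WT wells, again overlapping (log2 fold change 0.28 with SE 0.20, adjusted p = 0.314 by edgeR). The recombinant ligand is protein and adds no transcript. The sign of the PCSK5 difference changed without T288P+GDF11 replicate 2, without WT replicate 3, with library totals alone and with the share of ribosomal protein counts as a covariate. FURIN and PCSK6, which can process ligands of the same family, did not pass the test either (log2 fold changes 0.11 and 0.16, adjusted p = 0.431 and 0.484).

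A convertase partner showed the widest difference of all genes the rule names. SCG5 (ENSG00000166922, chromosome 15, 32641676 to 32697098), which encodes 7B2, the chaperone of the neuroendocrine convertase PCSK2, had 3.85, 7.41, 7.14 and 8.95 CPM in the T288P+GDF11 wells, against 0.544, 0.363, 0.337 and 0.130 CPM in the WT wells. Every T288P+GDF11 well lay above every WT well, 19.6-fold by the fitted fold change (log2 fold change 4.29 with SE 0.93, adjusted p = 0.00351 by edgeR). For the widest fold changes the rule takes only genes without overlap. Of the 7 convertases and partners tested, SCG5 was the 1 called higher and 1 was called lower. That is 28.6% called, against 28.9% of all genes, so the list as a whole gives no result.

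The counts of called members in the lists that follow stand against 13.8% of all genes higher, 15.1% lower and 28.9% called in all, and a share near these is not a result about the list. These shares are not matched for abundance. At 100 CPM or more, 708 of 1693 genes were called lower, so 15.1% is a low mark for a list of abundant genes. Among the family's ligands, 2 of 9 were called higher and 2 lower (list median 0.26, all genes 0.02). TGFB1, the founding ligand, had 29.2, 42.5, 41.3 and 40.1 CPM in the T288P+GDF11 wells, against 76.7, 50.9, 77.3 and 56.7 CPM in the WT wells, and the groups did not overlap (log2 fold change -0.77 with SE 0.18, adjusted p = 0.00476 by edgeR). GDF15, a stress-induced distant member, had 3.50, 4.46, 2.90 and 2.45 CPM in the T288P+GDF11 wells, against 7.96, 12.05, 7.42 and 7.73 CPM in the WT wells, without overlap (log2 fold change -1.40 with SE 0.28, adjusted p = 0.00141 by edgeR). INHBA, the subunit of activin A, which uses the same receptors as GDF11, stood at 525 to 621 CPM in T288P+GDF11 wells, against 315 to 455 CPM in WT wells (log2 fold change 0.60 with SE 0.21, adjusted p = 0.0391 by edgeR), but the call was lost without T288P+GDF11 replicate 1, 3 or 4 or WT replicate 2 or 4 (highest adjusted p = 0.102). MSTN, the closest relative of GDF11, was called higher (log2 fold change 2.32 with SE 0.62, adjusted p = 0.00972 by edgeR) at a very low level, 0.495 to 1.38 CPM in T288P+GDF11 wells, against 0.0674 to 0.401 CPM in WT wells.

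Of 11 receptor transcripts 1 was called higher and 3 lower (36.4% called, against 28.9% of all genes; list median -0.14). TGFBR2, the type II receptor for TGF-beta, had 66.1, 52.9, 58.9 and 58.1 CPM in the T288P+GDF11 wells, against 29.5, 27.9, 37.9 and 25.4 CPM in the WT wells. All 4 T288P+GDF11 wells were above the WT wells (log2 fold change 0.97 with SE 0.21, adjusted p = 0.00308 by edgeR). Of the type I receptors 3 fell: ACVR1C, ACVR1B and ACVR1, which encode ALK7, ALK4 and ALK2, had log2 fold changes of -1.18, -0.56 and -0.44 (adjusted p = 0.00139, 0.00242 and 0.00474). ACVR1C had 1.41, 1.29, 1.44 and 1.64 CPM in the T288P+GDF11 wells, against 3.81, 3.06, 3.55 and 2.66 CPM in the WT wells. ACVR1B stood at 12.2 to 16.3 CPM in T288P+GDF11 wells, against 18.6 to 22.9 CPM in WT wells. ACVR1 stood at 18.5 to 20.99 CPM in T288P+GDF11 wells, against 23.8 to 30.7 CPM in WT wells, and for none of these receptors did the groups overlap. The type II activin receptors were not called (log2 fold changes 0.08 for ACVR2A and -0.55 for ACVR2B, adjusted p = 0.802 and 0.34). The ACVR2B wells did not overlap even so, with 9.05 to 10.7 CPM in T288P+GDF11 wells, against 13.4 to 15.2 CPM in WT wells. TGFBR1, the type I receptor that GDF11 can also use, had a log2 fold change of -0.14 (adjusted p = 0.267), positive with library totals alone, where the call of ACVR1B was lost too.

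Extracellular binding proteins were called higher in 4 of 10 cases and lower in 1. LTBP2, a latency protein family member of the elastic matrix, had 27.02, 20.4, 27.5 and 21.6 CPM in the T288P+GDF11 wells, against 8.77, 6.21, 9.78 and 5.94 CPM in the WT wells without overlap (log2 fold change 1.65 with SE 0.32, adjusted p = 0.00124 by edgeR). NOG, the BMP antagonist noggin, had 2.56, 3.08, 1.69 and 2.72 CPM in the T288P+GDF11 wells, against 0.974, 0.753, 1.28 and 0.974 CPM in the WT wells (log2 fold change 1.33 with SE 0.27, adjusted p = 0.00142 by edgeR). The other calls were less secure. LTBP1, at 0.823 to 1.78 CPM in T288P+GDF11 wells, against 0 to 0.382 CPM in WT wells, was barely detected in WT. DCN was at 0.131 to 1.24 CPM in T288P+GDF11 wells, against 0 to 0.182 CPM in WT wells. Among the wells compared, mainly those of T288P+GDF11 could carry LTBP1 and DCN past the low-count filter, so these 2 higher calls say little about the list. Both calls ended when single wells of either condition were left out (highest adjusted p = 0.107 and 0.0840), as did that of LTBP3 (-0.31, highest 0.102). For LTBP1 this was so for each well but WT replicate 3, and neither DESeq2 nor limma-voom called it. For DCN it was T288P+GDF11 replicates 1 and 4 and WT replicates 1, 3 and 4, and for LTBP3 T288P+GDF11 replicates 1 and 4 and WT replicates 1 and 3. The activin and GDF11 antagonists FST and FSTL3 were not called (log2 fold changes 0.13 and 0.14, adjusted p = 0.78 and 0.191).

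Of the SMADs and their feedback inhibitors, 2 of 17 were called higher and 6 lower (list median -0.19). SMAD3 (ENSG00000166949, chromosome 15, 67063763 to 67195195), a direct effector of GDF11 receptors, had 91.03, 82.9, 89.9 and 97.1 CPM in the T288P+GDF11 wells, against 163, 157, 152 and 141 CPM in the WT wells. The groups were far apart (log2 fold change -0.76 with SE 0.08, adjusted p = 3.51e-06 by edgeR). SMURF1, a ubiquitin ligase that acts on SMADs and receptors, stood at 83.7 to 106 CPM in T288P+GDF11 wells, against 156 to 192 CPM in WT wells (log2 fold change -0.95 with SE 0.16, adjusted p = 0.000276 by edgeR). The corepressor TGIF1 stood at 34.2 to 38.7 CPM in T288P+GDF11 wells, against 50.5 to 58.5 CPM in WT wells (log2 fold change -0.58 with SE 0.13, adjusted p = 0.00219 by edgeR). PPM1A, a phosphatase that can act on SMAD2 and SMAD3, was lower with 1 well far below the rest: 79.6, 78.7, 35.6 and 88.1 CPM in the T288P+GDF11 wells, against 114, 124, 111 and 120.4 CPM in the WT wells (log2 fold change -0.74 with SE 0.20, adjusted p = 0.0108 by edgeR). SMAD2 (-0.36) and SMAD4 (-0.29) were called lower and SMAD1 (0.64) higher, but these 3 calls ended when single wells were left out, while the fold changes kept their sign under every alternative run (-0.42 to -0.18, -0.32 to -0.11 and 0.57 to 0.83). That of SMAD2 ended without T288P+GDF11 replicate 1 or 2 or WT replicate 1, 2 or 4 (highest adjusted p = 0.0865). That of SMAD4 ended without WT replicate 1 or 2 (0.0690), and that of SMAD1 without T288P+GDF11 replicate 1, 2 or 3 or WT replicate 1 (0.0817).

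The feedback inhibitors split. PMEPA1 (ENSG00000124225, chromosome 20, 57648392 to 57711536), a membrane adaptor that holds SMAD2 and SMAD3 from the receptor, had 204, 199, 202 and 189 CPM in the T288P+GDF11 wells, against 79.99, 65.2, 81.3 and 63.9 CPM in the WT wells. It was 2.73-fold higher with no overlap (log2 fold change 1.45 with SE 0.14, adjusted p = 3.51e-06 by edgeR). SMAD7, the inhibitory SMAD, had 4.97, 5.07, 5.03 and 4.40 CPM in the T288P+GDF11 wells, against 5.30, 3.27, 4.45 and 2.99 CPM in the WT wells, which overlapped (log2 fold change 0.28 with SE 0.20, adjusted p = 0.318 by edgeR). SKIL, a nuclear corepressor, had 129, 103, 129.7 and 139.9 CPM in the T288P+GDF11 wells, against 134, 106, 131 and 90.1 CPM in the WT wells, which overlapped too (log2 fold change 0.12 with SE 0.15, adjusted p = 0.587 by edgeR). Thus of these 3 feedback genes only PMEPA1 was called.

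The 36 tested SMAD2/3 targets were the list with the most higher calls by number, 16 higher (44.4%, against 13.8% of all genes) and 5 lower (list median 0.37). FN1 (ENSG00000115414, chromosome 2, 215360440 to 215436172), the matrix protein fibronectin, had 283, 256, 298 and 334 CPM in the T288P+GDF11 wells, against 108, 66.2, 113 and 72.3 CPM in the WT wells, without overlap and 3.26-fold by the fitted fold change (log2 fold change 1.71 with SE 0.23, adjusted p = 0.0001 by edgeR). ITGB6, the integrin chain that pairs with ITGAV to release latent TGF-beta, had 174, 122, 161 and 140.1 CPM in the T288P+GDF11 wells, against 55.7, 54.4, 57.8 and 53.5 CPM in the WT wells (log2 fold change 1.43 with SE 0.15, adjusted p = 5.06e-06 by edgeR). ITGAV itself was called too (0.52).

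The other targets called higher included LTBP2 (1.65), MMP10 (2.33), COL7A1 (1.57), HMGA2 (0.87), TGFBI (0.59), COL4A2 (0.34) and TPM1 (0.24) and, with calls that ended without single wells, THBS1 (1.38, highest adjusted p = 0.0756) and ACTA2 (0.70, 0.0858). The wells were T288P+GDF11 replicates 1 and 3 and WT replicates 1, 2 and 4 for both. The 5 called lower were SNAI1 (-1.08), TGFB1 (-0.77), CDKN1A (-0.67), BHLHE40 (-0.42) and ITGB1 (-0.26), the last of them lost without T288P+GDF11 replicate 1 or 3 or WT replicate 1 or 4 (highest adjusted p = 0.0710). SNAI1, the SNAIL repressor of CDH1, was thus lower while FN1 was higher. CCN2, a frequently used target, was not called (log2 fold change 0.88, SE 0.42, adjusted p = 0.121).

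Of 11 targets of the BMP branch, which runs through SMAD1 and its relatives, 3 were higher and 1 lower, or 3 lower without T288P+GDF11 replicate 3 (36.4% called, against 28.9% of all genes; list median 0.21). The inhibitors of differentiation, which block helix-loop-helix factors, went opposite ways. ID3 had 23.4, 23.5, 23.6 and 16.5 CPM in the T288P+GDF11 wells, against 7.39, 8.52, 6.14 and 9.42 CPM in the WT wells (log2 fold change 1.47 with SE 0.18, adjusted p = 2.60e-05 by edgeR). ID1 had 191, 245, 217 and 215 CPM in the T288P+GDF11 wells, against 302, 299, 309 and 324 CPM in the WT wells (log2 fold change -0.51 with SE 0.11, adjusted p = 0.00313 by edgeR). Neither pair of groups overlapped. Within the cytostatic program of TGF-beta, 4 of 12 genes were higher and 5 lower. Lower were the CDK inhibitors CDKN1A, CDKN1B and CDKN1C (log2 fold changes -0.67, -0.62 and -0.72) and GADD45B, a stress sensor. GADD45B had 14.6 to 20.5 CPM in T288P+GDF11 wells, against 37.5 to 44.9 CPM in WT wells (log2 fold change -1.23 with SE 0.21, adjusted p = 0.000442 by edgeR). MYC was higher (0.46), a call that ended without T288P+GDF11 replicate 1 or 2 or WT replicate 1 or 2 (highest adjusted p = 0.0616). The number of higher members was 2 without T288P+GDF11 replicate 1 or without WT replicate 2. In the textbook program CDKN1A is induced and MYC is repressed. CDKN2B, a CDK inhibitor that the list also holds, was not among the genes tested, so the program is seen only in part.

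**Figure D2:**
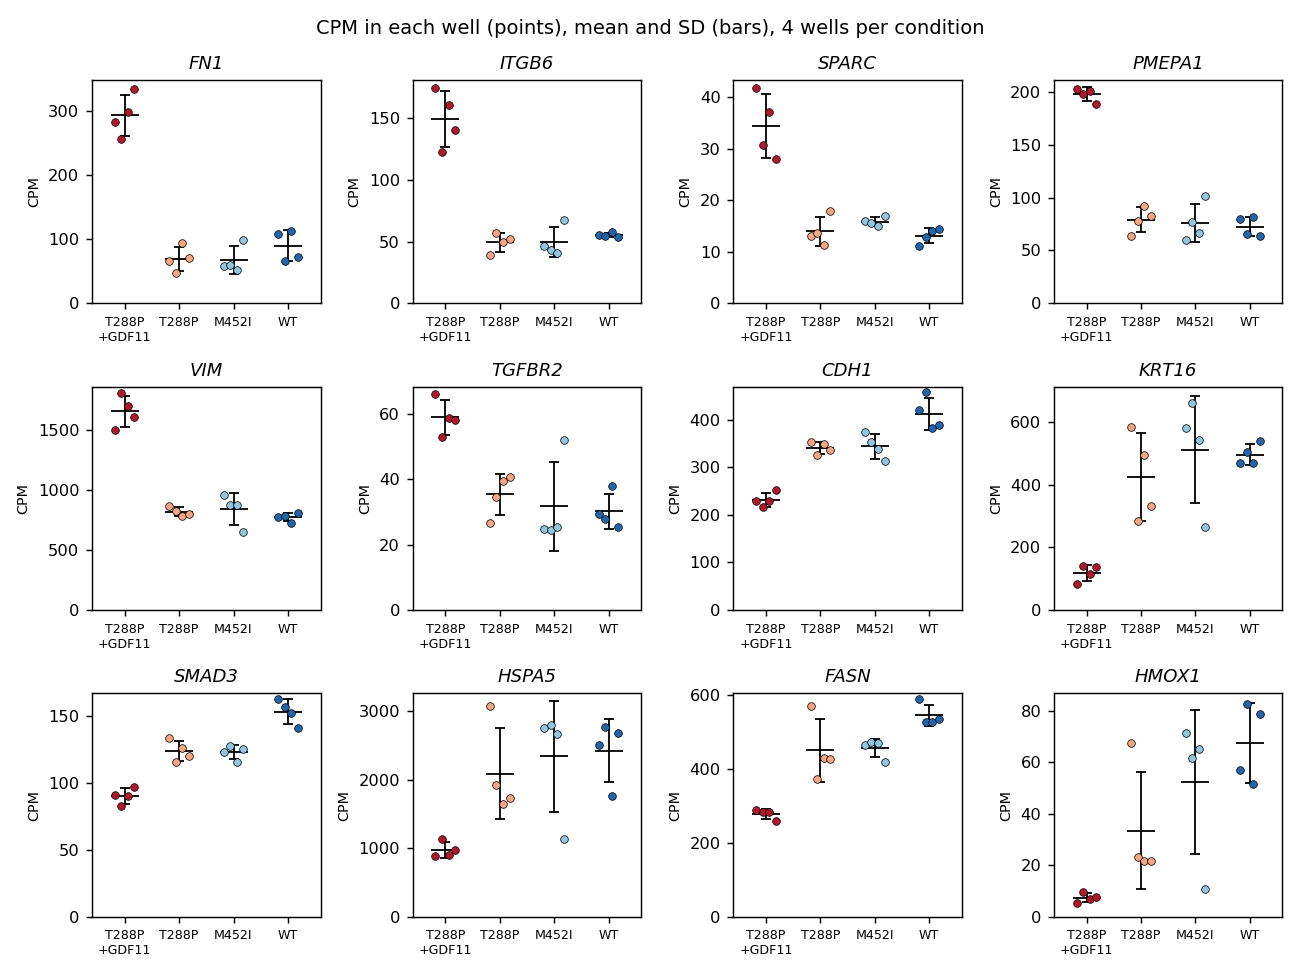
CPM of 12 genes in every well (points) of the 4 conditions, with the mean and SD (bars) of 4 wells. For each gene the T288P+GDF11 wells lie clear of the WT wells, and HSPA5 and HMOX1 show untreated wells, M452I replicate 4 among them, well below the rest of their group.

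The 12 highest fold changes under the rule for named genes lay mostly outside the pathway lists. ZBED2, a zinc finger transcription factor, had 19.6, 16.005, 17.4 and 12.1 CPM in the T288P+GDF11 wells, against 2.29, 1.19, 1.98 and 0.552 CPM in the WT wells (log2 fold change 3.42 with SE 0.71, adjusted p = 0.00273 by edgeR). SLC26A2, a sulfate transporter that supplies proteoglycan sulfation, had 85.97, 39.7, 60.6 and 47.03 CPM in the T288P+GDF11 wells, against 4.47, 5.74, 7.12 and 5.23 CPM in the WT wells (log2 fold change 3.37 with SE 0.57, adjusted p = 0.000962 by edgeR). The cell adhesion gene CDH19, a type II cadherin, had 80.2, 55.1, 71.7 and 68.2 CPM in the T288P+GDF11 wells, against 10.9, 11.03, 20.1 and 10.003 CPM in the WT wells (log2 fold change 2.40 with SE 0.34, adjusted p = 0.00018 by edgeR). All 3 were several times as high in T288P+GDF11 on the means. Their lack of overlap is a condition of the rule for these 12 genes and no separate result.

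The rest of the 12 were, by log2 fold change, the orphan receptor MRGPRX3 (3.26), NREP (3.18), SLC35F3 (2.75), DCDC2C (2.70), the matrix protease ADAMTS6 (2.58), PALMD (2.54), the RNA-binding protein BICC1 (2.52) and TMOD2, which caps actin filaments (2.34). MRGPRX3 stood at 15.5 to 25.9 CPM in T288P+GDF11 wells, against 1.66 to 2.85 CPM in WT wells. NREP stood at 4.74 to 7.03 CPM in T288P+GDF11 wells, against 0.286 to 1.19 CPM in WT wells. By adjusted p, the clearest higher genes at 20 CPM or more were CAMK2N1, CTSC, PMEPA1, VIM, SPARC, LEMD1, TUBA4A and COQ5. CAMK2N1, an inhibitor of CaM kinase II, was at 169.9 to 188 CPM in T288P+GDF11 wells, against 89.7 to 103 CPM in WT wells (log2 fold change 0.90 with SE 0.07, adjusted p = 6.35e-07 by edgeR). The lysosomal protease CTSC was at 139 to 179.9 CPM in T288P+GDF11 wells, against 53.8 to 65.1 CPM in WT wells (log2 fold change 1.43 with SE 0.13, adjusted p = 2.57e-06 by edgeR).

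On the low side the widest fold change was that of HMOX1 (ENSG00000100292, chromosome 22, 35380361 to 35394214), the inducible heme oxygenase, which had 5.47, 9.49, 6.87 and 7.80 CPM in the T288P+GDF11 wells, against 57.1, 82.6, 51.5 and 78.8 CPM in the WT wells. The groups were far apart (log2 fold change -3.18 with SE 0.56, adjusted p = 0.00121 by edgeR). CEACAM5, the carcinoembryonic antigen, a surface glycoprotein, had 4.62, 6.95, 5.58 and 7.09 CPM in the T288P+GDF11 wells, against 33.7, 27.1, 37.3 and 30.98 CPM in the WT wells, 5.32-fold lower (log2 fold change -2.41 with SE 0.15, adjusted p = 1.80e-08 by edgeR). HAS3, a hyaluronan synthase, had the smallest adjusted p beside CEACAM5, at 45.8 to 52.6 CPM in T288P+GDF11 wells, against 122 to 136 CPM in WT wells (log2 fold change -1.39 with SE 0.08, adjusted p = 1.80e-08 by edgeR). ELF3, an epithelial ETS factor, had 14.2, 18.7, 15.8 and 19.2 CPM in the T288P+GDF11 wells, against 76.4, 81.004, 69.2 and 73.8 CPM in the WT wells (log2 fold change -2.14 with SE 0.20, adjusted p = 3.51e-06 by edgeR). None of these 4 genes overlapped between the conditions, which the rule requires of all but HAS3.

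Others of the lowest 12 were COL6A1 (-2.51), KIAA0319 (-2.44), SPRR2A (-2.37), S100A9 (-2.34), SPRR2E (-2.23), PADI1 (-2.22), ATF3 (-2.16) and S100A8 (-2.08), most of them members of the groups that follow. KIAA0319 was at 0.441 to 0.896 CPM in T288P+GDF11 wells, against 2.57 to 3.92 CPM in WT wells. Among the lower genes with the smallest p were also EPHB3, LMO7, the phosphate transporter SLC20A2 (-1.09) and CRYBG2 (-1.61). EPHB3, an ephrin receptor, was at 9.03 to 10.2 CPM in T288P+GDF11 wells, against 24.6 to 31.7 CPM in WT wells (log2 fold change -1.60 with SE 0.13, adjusted p = 6.35e-07 by edgeR). LMO7, a protein of adherens junctions, was at 72.8 to 91.03 CPM in T288P+GDF11 wells, against 157 to 159.6 CPM in WT wells (log2 fold change -0.96 with SE 0.08, adjusted p = 6.96e-07 by edgeR).

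Genes of the mesenchymal state rose in part. Of 19 tested, 6 were higher and 1 lower (list median 0.39). VIM (ENSG00000026025, chromosome 10, 17228259 to 17237593), the intermediate filament vimentin, had 1507, 1809, 1703 and 1616 CPM in the T288P+GDF11 wells, against 776, 781, 729 and 812 CPM in the WT wells. It was 2.14-fold higher by the fitted fold change (log2 fold change 1.10 with SE 0.11, adjusted p = 3.02e-06 by edgeR). SPARC, a collagen-binding matricellular protein, had 41.8, 30.8, 37.1 and 27.9 CPM in the T288P+GDF11 wells, against 11.1, 12.9, 14.05 and 14.3 CPM in the WT wells (log2 fold change 1.40 with SE 0.14, adjusted p = 4.68e-06 by edgeR). ZEB1, a repressor of epithelial genes, was called higher as well (0.87, adjusted p = 0.00203). SNAI2, TWIST1 and TWIST2 were not called.

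Epithelial genes fell more evenly. Of 17 identity and splicing genes 10 were lower (list median -0.47), where 15.1% of all genes were. Among all genes at 100 CPM or more, 708 of 1693 were lower. Tight junction genes were lower in 8 of 12, adherens junction genes in 7 of 10 and desmosome genes in 9 of 12 (medians -0.52, -0.45 and -0.42). In these 4 lists edgeR called 0 members higher and DESeq2 likewise 0. Limma-voom called 1 tight junction gene higher, and 1 tight junction gene was higher at an unadjusted edgeR p under 0.05. CDH1 (ENSG00000039068, chromosome 16, 68737225 to 68835548), epithelial cadherin, had 229, 218, 229.7 and 253 CPM in the T288P+GDF11 wells, against 420.0, 458, 382 and 389.9 CPM in the WT wells (log2 fold change -0.83 with SE 0.08, adjusted p = 4.24e-06 by edgeR). The tight junction protein OCLN stood at 11.5 to 15.9 CPM in T288P+GDF11 wells, against 33.6 to 45.9 CPM in WT wells (log2 fold change -1.63 with SE 0.16, adjusted p = 3.00e-06 by edgeR). CLDN4, a claudin, stood at 71.004 to 91.5 CPM in T288P+GDF11 wells, against 194 to 253 CPM in WT wells (log2 fold change -1.49 with SE 0.21, adjusted p = 9.38e-05 by edgeR). For none of these genes did the groups overlap.

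Desmosomal cadherins and plaque proteins followed. DSG3 had 529, 393, 496 and 563 CPM in the T288P+GDF11 wells, against 849, 952, 779 and 901 CPM in the WT wells (log2 fold change -0.81 with SE 0.12, adjusted p = 9.32e-05 by edgeR). DSP, desmoplakin, had a log2 fold change of -0.71 (adjusted p = 0.000124). The splicing factor ESRP1 (-0.41), the membrane proteases ST14 (-0.72) and PRSS8 (-1.36) and the repressor OVOL1 (-1.45) were lower as well. EPCAM (-0.21) and GRHL2 (0.18) did not pass the test.

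Keratins did not fall alike. Of 9 basal and stress keratins 1 was called higher and 3 lower (44.4% called, against 28.9% of all genes). The higher one was KRT15 (log2 fold change 0.38, adjusted p = 0.00475 by edgeR), with means of 676 CPM in T288P+GDF11 and 519 CPM in WT. KRT81 was among the lower ones (-0.89). KRT5, the basal keratin, had 1659, 1854, 1717 and 1689 CPM in the T288P+GDF11 wells, against 2116, 1846, 2037 and 1928 CPM in the WT wells, which overlapped (log2 fold change -0.20 with SE 0.09, adjusted p = 0.0922). Its partner KRT14 stood at 64.2 to 75.7 CPM in T288P+GDF11 wells, against 53.7 to 82.4 CPM in WT wells (log2 fold change -0.01 with SE 0.14, adjusted p = 0.977 by edgeR, the sign differing between scalings). The stress keratin KRT16 had 83.9, 139, 114 and 137 CPM in the T288P+GDF11 wells, against 471, 503, 470.0 and 539 CPM in the WT wells, 4.18-fold lower (log2 fold change -2.06 with SE 0.27, adjusted p = 7.62e-05 by edgeR). KRT17 stood at 1389 to 2235 CPM in T288P+GDF11 wells, against 3299 to 3541 CPM in WT wells (log2 fold change -0.89 with SE 0.19, adjusted p = 0.00226 by edgeR). Of 6 luminal keratins 4 were lower (list median -0.97), KRT8, KRT18 (-0.70), KRT23 (-1.89) and KRT80 (-1.66). The most abundant of the 6, KRT7, was not called (0.15), with means of 1309 CPM in T288P+GDF11 and 1176 CPM in WT. KRT8 had 261, 336, 308 and 302 CPM in the T288P+GDF11 wells, against 615, 822, 558 and 750.0 CPM in the WT wells (log2 fold change -1.19 with SE 0.26, adjusted p = 0.00342 by edgeR). Related keratin genes can share reads, so their separate levels are less certain.

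Luminal lineage genes were lower in 5 of 10 (list median -0.65). FOXA1, the pioneer factor of luminal cells, had 5.88, 7.19, 6.15 and 5.79 CPM in the T288P+GDF11 wells, against 14.4, 13.9, 13.3 and 12.6 CPM in the WT wells (log2 fold change -1.12 with SE 0.12, adjusted p = 6.56e-06 by edgeR). CD24, a surface glycoprotein, was lower (-0.59), and GATA3 was not called (-0.30). Of 12 basal and myoepithelial genes 2 were higher and 1 lower (25% called, against 28.9% of all genes). SOX9 was higher at 129 to 154 CPM in T288P+GDF11 wells, against 70.2 to 87.9 CPM in WT wells (log2 fold change 0.85 with SE 0.13, adjusted p = 0.000158 by edgeR). TP63, the basal lineage factor, was not called (log2 fold change 0.69, adjusted p = 0.117). The other higher call of that list was ACTA2, whose call ended without single wells as given above.

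The list with the lowest median among those with 10 or more tested members was that of the cornified envelope, the protein shell of differentiating keratinocytes (-1.25): 10 of 15 were lower and 1 higher. The small proline-rich proteins, envelope precursors, stood far apart. SPRR1A had 4.09, 4.35, 4.04 and 4.68 CPM in the T288P+GDF11 wells, against 13.2, 13.3, 12.4 and 13.1 CPM in the WT wells (log2 fold change -1.60 with SE 0.16, adjusted p = 3.51e-06 by edgeR). SPRR2A had 8.44, 9.01, 7.81 and 6.53 CPM in the T288P+GDF11 wells, against 35.8, 49.5, 30.5 and 49.4 CPM in the WT wells (log2 fold change -2.37 with SE 0.31, adjusted p = 9.12e-05 by edgeR). SPRR3 (-2.13), SBSN (-1.84) and the cross-linking enzyme TGM1 (-1.25; adjusted p = 0.0560 without WT replicate 3) were lower too. LCN2, lipocalin 2, was the 1 higher gene (0.65). SPRR2 genes are near copies of each other, and their reads may be shared.

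Of 12 S100 proteins, which bind calcium, 3 were lower and 1 higher (33.3% called, against 28.9% of all genes). In the fit of the 8 T288P+GDF11 and WT libraries, and in that of 14 libraries without M452I replicate 4 and T288P replicate 1, 5 were lower. S100A9, a subunit of calprotectin, had 18.5, 24.6, 21.3 and 20.1 CPM in the T288P+GDF11 wells, against 85.2, 131, 79.99 and 131 CPM in the WT wells (log2 fold change -2.34 with SE 0.39, adjusted p = 0.000728 by edgeR). Its partner S100A8 was lower at 0.341 to 1.41 CPM in T288P+GDF11 wells, against 2.67 to 5.42 CPM in WT wells (log2 fold change -2.08 with SE 0.39, adjusted p = 0.000842 by edgeR). S100P had 109 to 166 CPM in T288P+GDF11 wells, against 386 to 438 CPM in WT wells (log2 fold change -1.58 with SE 0.27, adjusted p = 0.00072 by edgeR), so none of the 3 overlapped between the conditions. The 1 higher call, S100A10, ended without T288P+GDF11 replicate 2, 3 or 4 or WT replicate 1 or 2 (highest adjusted p = 0.0808). The kallikrein peptidases KLK5 (-1.12) and KLK10 (-1.19), which act in the shedding of squames, were 2 of 3 tested and both lower.

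Of the 7 genes that were called between untreated T288P and WT (0.0417% of genes), all were also called here. The comparisons share the WT wells, and 12.9% of genes were called between T288P+GDF11 and T288P, so the levels are given side by side. PADI2 (ENSG00000117115, chromosome 1, 17066761 to 17119435), which converts arginine in proteins to citrulline, averaged 6.14 ± 0.337 CPM in T288P+GDF11, 6.53 ± 1.05 in T288P, 7.74 ± 0.909 in M452I and 15.8 ± 2.31 in WT (SD, n = 4 each). In the T288P+GDF11 wells PADI2 stood close to untreated T288P (log2 fold change of T288P+GDF11 over T288P -0.09, adjusted p = 0.712). IL1B, an inflammatory cytokine, averaged 112 ± 6.49 CPM in T288P+GDF11, 122 ± 16.4 in T288P, 117 ± 20.4 in M452I and 71.99 ± 6.93 in WT. TGFBI, a matrix protein known as a TGF-beta target, averaged 114 ± 4.87 CPM in T288P+GDF11, 109.7 ± 9.45 in T288P, 119 ± 13.7 in M452I and 75.7 ± 5.26 in WT. For both, T288P+GDF11 against T288P was small and not called (log2 fold changes -0.12 and 0.06, adjusted p = 0.534 and 0.723). T288P against WT had log2 fold changes of -1.27 for PADI2, 0.76 for IL1B and 0.54 for TGFBI.

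The other 4 were lower in both. PPL, periplakin of the cornified envelope and desmosome, averaged 30.4 ± 3.06 CPM in T288P+GDF11, 50.3 ± 8.34 in T288P, 54.6 ± 3.48 in M452I and 78.95 ± 7.81 in WT. MYH14, a non-muscle myosin heavy chain, averaged 7.64 ± 0.705 CPM in T288P+GDF11, 14.97 ± 2.44 in T288P, 15.7 ± 1.67 in M452I and 25.7 ± 2.68 in WT. Both were lower in T288P+GDF11 than in T288P as well (-0.73 and -0.97, adjusted p = 0.000562 and 0.000163). PADI1 averaged 1.23 ± 0.242 CPM in T288P+GDF11, 2.41 ± 0.314 in T288P, 2.93 ± 0.805 in M452I and 5.73 ± 0.766 in WT (-0.97 against T288P, adjusted p = 0.00856). LXN, a carboxypeptidase inhibitor, averaged 10.98 ± 1.60 CPM in T288P+GDF11, 8.73 ± 0.650 in T288P, 9.65 ± 1.28 in M452I and 14.9 ± 1.18 in WT. Its call against WT (adjusted p = 0.0164) ended without T288P+GDF11 replicate 3 or WT replicate 2, 3 or 4 (highest adjusted p = 0.0662).

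**Figure D3:**
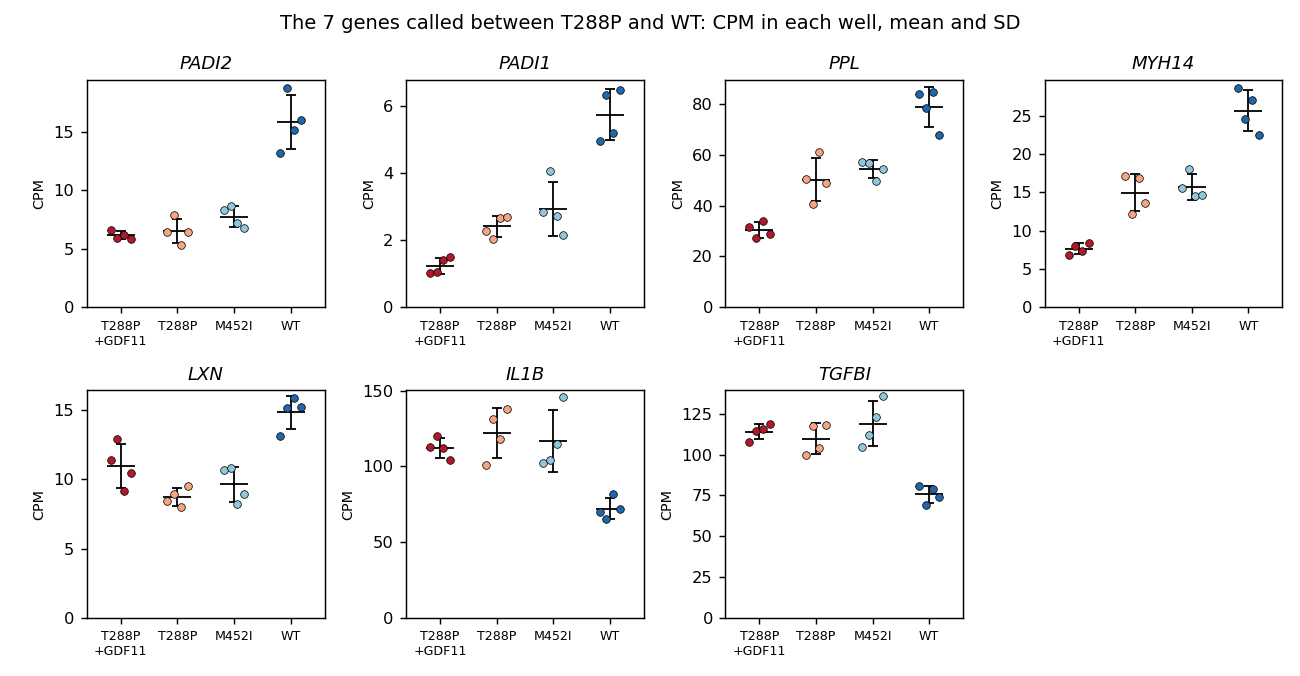
CPM in every well (points), with mean and SD (bars) of 4 wells, for the 7 genes called between untreated T288P and WT. PADI2, IL1B and TGFBI sit at like levels in T288P+GDF11 and T288P and apart from WT, while PPL and MYH14 are lowest in T288P+GDF11, with T288P between it and WT.

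Matrix genes were mixed in direction and led by a few large changes. Collagens were higher in 5 of 12 and lower in 1 (list median 0.54), with 3 higher without WT replicate 4. COL8A1 had 29.8, 21.1, 24.5 and 20.5 CPM in the T288P+GDF11 wells, against 6.79, 4.73, 7.06 and 4.94 CPM in the WT wells (log2 fold change 2.02 with SE 0.36, adjusted p = 0.000781 by edgeR). COL7A1, which forms anchoring fibrils, had 6.21 to 8.29 CPM in T288P+GDF11 wells, against 1.87 to 2.66 CPM in WT wells (log2 fold change 1.57 with SE 0.40, adjusted p = 0.00698 by edgeR). Chains of collagen VI went apart. COL6A1 had 0.911, 1.20, 0.768 and 1.36 CPM in the T288P+GDF11 wells, against 5.84, 6.41, 5.57 and 6.30 CPM in the WT wells (log2 fold change -2.51 with SE 0.33, adjusted p = 4.14e-05 by edgeR). COL6A3 was higher (1.37, adjusted p = 0.05), a call that any 1 of the 8 wells left out would end (highest adjusted p = 0.115).

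Basement membrane genes were 4 higher and 4 lower of 16. LAMA3, a laminin chain, was higher at 2477 to 3277 CPM in T288P+GDF11 wells, against 1032 to 1476 CPM in WT wells (log2 fold change 1.26 with SE 0.17, adjusted p = 5.45e-05 by edgeR). LAMA4 was lower at 11.6 to 14.03 CPM in T288P+GDF11 wells, against 21.8 to 24.7 CPM in WT wells (log2 fold change -0.86 with SE 0.11, adjusted p = 5.27e-05 by edgeR). With library totals alone 1 basement membrane gene was lower, and the calls of LAMC1 (-0.33) and AGRN (-0.35) were lost. Of 13 integrin subunits 3 were higher and 3 lower, 1 lower with library totals alone. ITGA6, part of laminin receptors, rose with ITGB6 and ITGAV (0.67, adjusted p = 0.00711).

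Proteases and serpins were mostly higher where called. In the joint list of the plasminogen system, with the activators PLAU and PLAT, and of serpins, 7 of 13 were higher (list median 0.64). SERPINA3, an inhibitor of serine proteases, had 1679, 1517, 1698 and 1391 CPM in the T288P+GDF11 wells, against 497, 632, 506 and 860.1 CPM in the WT wells (log2 fold change 1.33 with SE 0.17, adjusted p = 2.98e-05 by edgeR). PLAU, urokinase, had 44.8 to 53.2 CPM in T288P+GDF11 wells, against 22.7 to 28.5 CPM in WT wells (log2 fold change 0.93 with SE 0.12, adjusted p = 4.17e-05 by edgeR). Matrix metalloproteases and inhibitors were 5 higher and 3 lower of 15. MMP10 had 3.23, 7.46, 8.65 and 9.78 CPM in the T288P+GDF11 wells, against 2.09, 1.01, 2.09 and 0.552 CPM in the WT wells (log2 fold change 2.33 with SE 0.46, adjusted p = 0.0013 by edgeR). MMP7 had 3.07 to 3.41 CPM in T288P+GDF11 wells, against 0.747 to 1.43 CPM in WT wells (log2 fold change 1.71 with SE 0.30, adjusted p = 0.000457 by edgeR). The inhibitors TIMP2 (-0.81) and TIMP1 (-0.75) were lower.

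**Figure D4:**
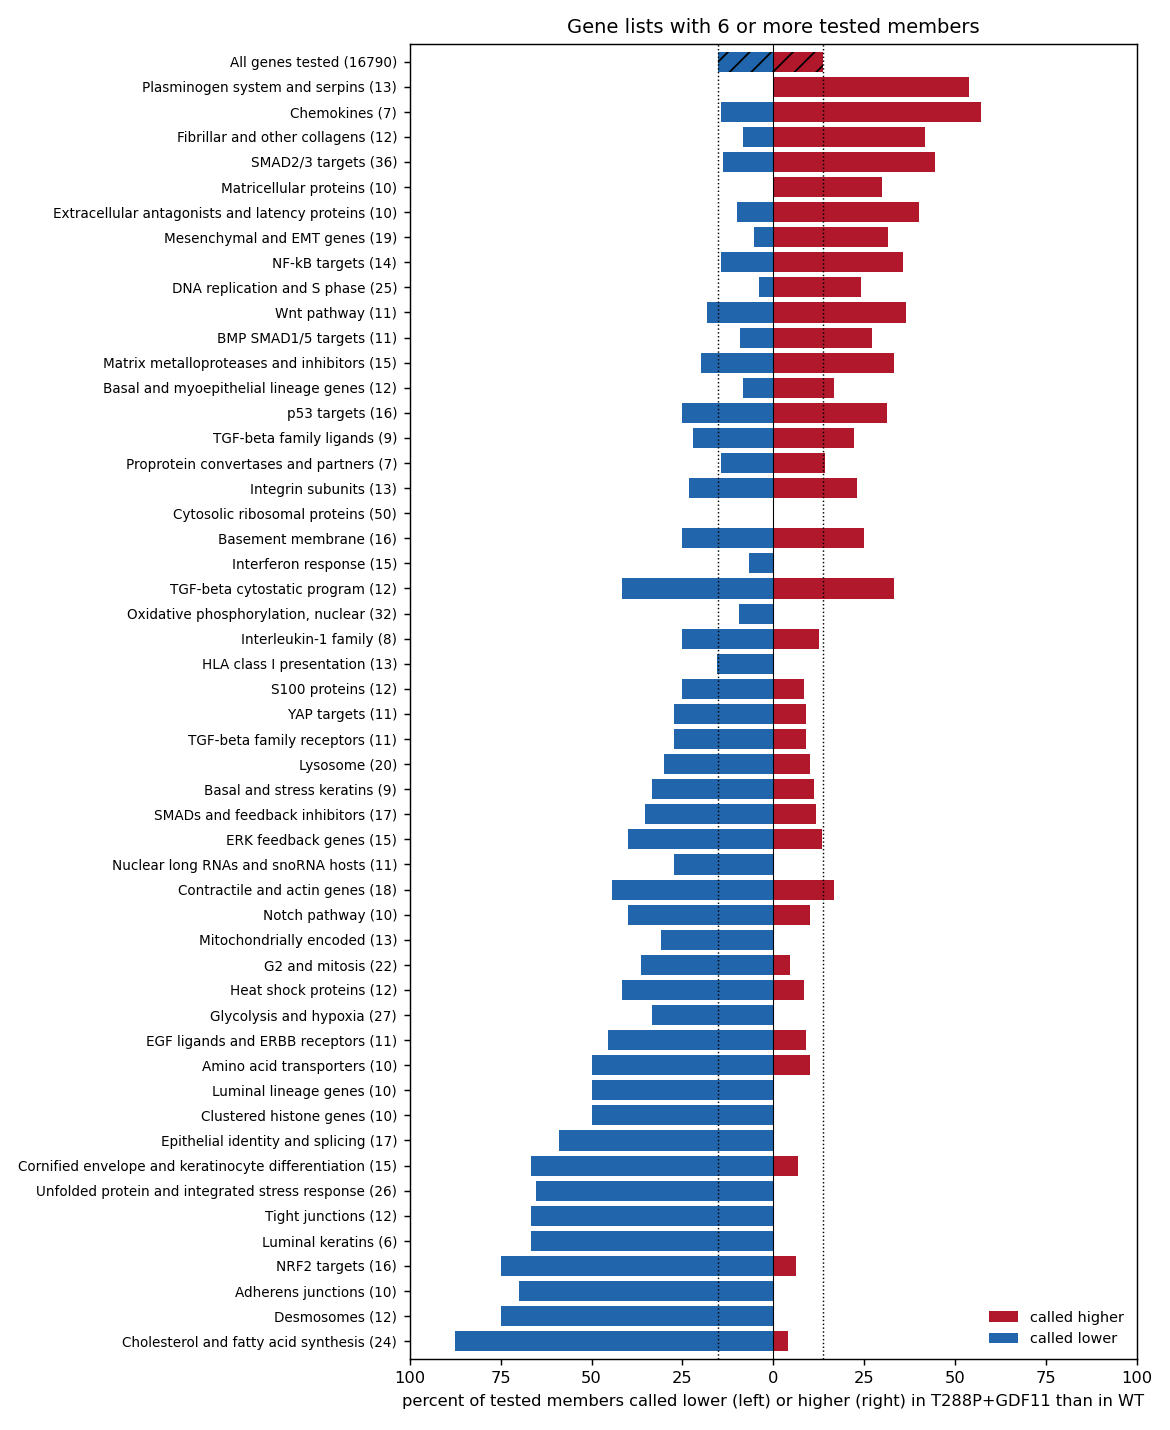
Percent of tested members called lower (left, blue) and higher (right, red) in T288P+GDF11 than in WT for each list with 6 or more tested members (number in brackets), with all genes hatched at the top and dotted lines at their 15.1% and 13.8%. The cholesterol list at the bottom has 21 of 24 members lower, and the plasminogen and serpin list at the top 7 of 13 higher.

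Inflammatory genes differed by class. The neutrophil-attracting chemokines rose. CXCL1 had 109.6, 116, 112 and 83.9 CPM in the T288P+GDF11 wells, against 36.2, 29.2, 45.9 and 31.99 CPM in the WT wells (log2 fold change 1.56 with SE 0.20, adjusted p = 4.35e-05 by edgeR). CXCL3 was higher by 1.57 and CXCL2 by 1.21 on the log2 scale. CXCL8 stood at 176 to 214 CPM in T288P+GDF11 wells, against 92.9 to 151 CPM in WT wells (log2 fold change 0.66 with SE 0.13, adjusted p = 0.00124 by edgeR). In all, 4 of 7 chemokines were higher and 1, CXCL16, lower (-0.53), a call lost without T288P+GDF11 replicate 2, 3 or 4 or WT replicate 1, 2 or 4 (highest adjusted p = 0.104). NF-kB targets were 5 higher and 2 lower of 14 (1 lower without T288P+GDF11 replicate 2 or 4 or WT replicate 1 or 3, or with library totals alone). SOD2, the mitochondrial superoxide dismutase, had 292 to 421 CPM in T288P+GDF11 wells, against 199 to 232 CPM in WT wells (log2 fold change 0.73 with SE 0.13, adjusted p = 0.00053 by edgeR), and TNFAIP2 had a log2 fold change of 1.60. IL33, an alarmin, was lower at 11.7 to 13.8 CPM in T288P+GDF11 wells, against 21.5 to 27.6 CPM in WT wells (log2 fold change -0.96 with SE 0.16, adjusted p = 0.000329 by edgeR). The IL-1 receptor antagonist IL1RN was lower too (-0.63; not called with library totals alone). Of 15 interferon response genes 1, OAS1, was called, lower (-0.80).

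Growth factor genes fell where called, apart from BTC. Of 11 EGF ligands and ERBB receptors 5 were lower and BTC higher (list median -0.46). The EGFR ligand EREG had 96.6, 89.7, 98.8 and 105 CPM in the T288P+GDF11 wells, against 228, 209.5, 266 and 201 CPM in the WT wells (log2 fold change -1.22 with SE 0.12, adjusted p = 3.00e-06 by edgeR). HBEGF, another, had 29.7 to 37.001 CPM in T288P+GDF11 wells, against 78.8 to 96.6 CPM in WT wells (log2 fold change -1.35 with SE 0.18, adjusted p = 4.57e-05 by edgeR). The receptor ERBB3 had 27.5 to 37.4 CPM in T288P+GDF11 wells, against 60.9 to 71.3 CPM in WT wells (log2 fold change -0.98 with SE 0.10, adjusted p = 3.51e-06 by edgeR). None of these 3 overlapped between the conditions, and EGFR itself was not called (0.49, adjusted p = 0.206). Genes that respond to ERK signalling were 6 lower and 2 higher of 15 (1 higher without T288P+GDF11 replicate 1 or 3 or WT replicate 2 or 4). The immediate early factor EGR1 was at 46.6 to 65.2 CPM in T288P+GDF11 wells, against 114 to 133 CPM in WT wells (log2 fold change -1.18 with SE 0.14, adjusted p = 2.23e-05 by edgeR). The phosphatase DUSP5 was at 168 to 226 CPM in T288P+GDF11 wells, against 451 to 618 CPM in WT wells (log2 fold change -1.48 with SE 0.21, adjusted p = 0.000102 by edgeR). DUSP6 was not called (0.31).

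Notch receptors were lower and a ligand higher, 4 lower and 1 higher of 10 genes (2 lower with library totals alone, without T288P+GDF11 replicate 2 or without WT replicate 1). NOTCH3 had 5.65, 6.43, 5.97 and 5.91 CPM in the T288P+GDF11 wells, against 22.5, 19.03, 21.01 and 14.03 CPM in the WT wells (log2 fold change -1.68 with SE 0.16, adjusted p = 2.45e-06 by edgeR). NOTCH1 had 14.96 to 16.5 CPM in T288P+GDF11 wells, against 24.7 to 28.7 CPM in WT wells (log2 fold change -0.75 with SE 0.11, adjusted p = 8.43e-05 by edgeR). The ligand JAG1 had 43.3 to 60.9 CPM in T288P+GDF11 wells, against 29.9 to 33.2 CPM in WT wells (log2 fold change 0.72 with SE 0.15, adjusted p = 0.00181 by edgeR). In the Wnt list 4 of 11 were higher and 2 lower. The secreted inhibitors SFRP1 (1.18) and DKK1 (1.09) and the ligand WNT7A (1.07) were among the higher ones, and WNT7B (-1.35), another ligand, among the lower. SFRP1 had 158 to 218 CPM in T288P+GDF11 wells, against 77.8 to 83.9 CPM in WT wells. The 2 remaining calls, WNT5A and WNT9A, ended when single wells were left out (highest adjusted p = 0.128 and 0.120). Both ended without T288P+GDF11 replicate 3 or WT replicate 2 or 3, WNT5A also without T288P+GDF11 replicate 4 or WT replicate 4, and WNT9A also without T288P+GDF11 replicate 1 or 2 or WT replicate 1. Actin and contractile genes were 8 lower and 3 higher of 18. The non-muscle myosin MYH9 was among the lower ones at 329 to 395 CPM in T288P+GDF11 wells, against 599.8 to 643 CPM in WT wells (log2 fold change -0.74 with SE 0.09, adjusted p = 1.65e-05 by edgeR).

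Among the lists with 6 or more tested members, lipid synthesis had the highest share of lower calls. Of 24 genes for making and taking up cholesterol and fatty acids, 21 were lower, where 15.1% of all genes were, and 1, PMVK, was higher (list median -0.67). Many of the 24 are abundant, and among all genes at 100 CPM or more 708 of 1693 were lower. The fatty acid synthase FASN (ENSG00000169710, chromosome 17, 82078333 to 82098332) had 289, 284, 283 and 259 CPM in the T288P+GDF11 wells, against 588, 528, 527 and 536 CPM in the WT wells (log2 fold change -0.97 with SE 0.11, adjusted p = 7.76e-06 by edgeR). The desaturase SCD, among the abundant transcripts, had 1784 to 1989 CPM in T288P+GDF11 wells, against 3119 to 3969.6 CPM in WT wells (log2 fold change -0.96 with SE 0.11, adjusted p = 7.87e-06 by edgeR). For neither did the groups overlap. SREBF1, a regulator of such genes, was at 61.2 to 70.9 CPM in T288P+GDF11 wells, against 122 to 159 CPM in WT wells (log2 fold change -1.06 with SE 0.13, adjusted p = 1.90e-05 by edgeR). Its relative SREBF2 was lower as well (-0.72). NPC1, which moves cholesterol out of lysosomes, was lower at 108 to 144 CPM in T288P+GDF11 wells, against 228 to 279 CPM in WT wells (log2 fold change -1.05 with SE 0.11, adjusted p = 7.05e-06 by edgeR). Against untreated T288P the list's median was -0.53, and that of untreated T288P against WT -0.15, in comparisons that share wells with this one.

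Genes of the unfolded protein response and the integrated stress response, which react to crowding of the endoplasmic reticulum and to amino acid shortage, were lower in 17 of 26 (list median -0.48). Higher calls numbered 0 by edgeR, DESeq2 and limma-voom alike, and 0 members were higher at an unadjusted edgeR p under 0.05. With library totals alone 13 were lower and 1, CRELD2, was higher, and without single wells 12 to 16 were lower. HSPA5 (ENSG00000044574, chromosome 9, 125234853 to 125241330), the chaperone BiP, had 884, 1134, 900.2 and 971 CPM in the T288P+GDF11 wells, against 2500.3, 2762, 1757 and 2675 CPM in the WT wells. It was 2.49-fold lower by the fitted fold change (log2 fold change -1.32 with SE 0.25, adjusted p = 0.00116 by edgeR). Of the stress-induced regulators, ATF3 had 22.4, 33.1, 23.4 and 31.8 CPM in the T288P+GDF11 wells, against 143, 130.3, 103 and 116 CPM in the WT wells (log2 fold change -2.16 with SE 0.38, adjusted p = 0.00114 by edgeR). PPP1R15A, which restarts translation, had 49.7 to 69.9 CPM in T288P+GDF11 wells, against 156 to 206 CPM in WT wells (log2 fold change -1.63 with SE 0.25, adjusted p = 0.000249 by edgeR). DDIT3, which encodes the death-related factor CHOP, was lower too (-1.65, adjusted p = 0.00882). The foldases PDIA3 and PDIA6 (-0.20 and -0.20), CALR (-0.32, adjusted p = 0.0941) and TRIB3 (-0.19) were not called.

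Of the 25 list members with a RefSeq promoter window (300 bases, 250 before to 50 after the start), 6 (24%) held the endoplasmic reticulum stress element on either strand, against 22 of 27305 windows of all genes (0.0806%). The letters searched were CCAAT, then 9 bases of any kind, then CCACG. It is bound by ATF6 with NF-Y and was first described in chaperone promoters. Of the 6, HSPA5, HSP90B1, CANX and XBP1 were called lower (-1.32, -0.64, -0.37 and -0.42), and CALR and CRELD2 were not (-0.32 and 0.26). The call of CANX ended without T288P+GDF11 replicate 2 or WT replicate 2 or 4 (highest adjusted p = 0.0671), and that of XBP1 without T288P+GDF11 replicate 1 or 3 or WT replicate 1, 2 or 4 (highest adjusted p = 0.0904). The 4 windows of the lower genes are shown because the element stands in each at another place. They lie at chr9:125241294-125241593, minus strand for HSPA5, chr12:103930160-103930459, plus strand for HSP90B1, chr5:179698679-179698978, plus strand for CANX and chr22:28800520-28800819, minus strand for XBP1. The sequences are from RefSeq on GRCh38.p14, written from 5′ to 3′ in the direction of the gene, with each match in capitals.
HSPA5: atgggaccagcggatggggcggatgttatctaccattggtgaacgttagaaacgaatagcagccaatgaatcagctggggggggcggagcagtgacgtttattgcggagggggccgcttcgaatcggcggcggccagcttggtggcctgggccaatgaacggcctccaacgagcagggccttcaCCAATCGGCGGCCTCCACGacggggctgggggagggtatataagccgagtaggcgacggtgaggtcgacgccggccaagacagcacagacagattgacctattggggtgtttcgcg
HSP90B1: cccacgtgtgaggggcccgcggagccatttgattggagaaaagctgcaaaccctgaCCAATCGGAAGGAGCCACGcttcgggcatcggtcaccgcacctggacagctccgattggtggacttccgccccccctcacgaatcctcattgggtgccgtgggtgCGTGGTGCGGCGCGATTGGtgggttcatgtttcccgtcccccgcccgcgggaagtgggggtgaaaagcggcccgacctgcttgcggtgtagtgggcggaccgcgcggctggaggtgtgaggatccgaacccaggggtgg
CANX: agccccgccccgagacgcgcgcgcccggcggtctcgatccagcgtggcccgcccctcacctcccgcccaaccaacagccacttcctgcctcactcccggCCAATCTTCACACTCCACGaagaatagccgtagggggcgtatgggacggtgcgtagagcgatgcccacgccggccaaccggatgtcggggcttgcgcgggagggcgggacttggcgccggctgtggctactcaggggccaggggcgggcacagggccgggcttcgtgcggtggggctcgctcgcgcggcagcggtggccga
XBP1: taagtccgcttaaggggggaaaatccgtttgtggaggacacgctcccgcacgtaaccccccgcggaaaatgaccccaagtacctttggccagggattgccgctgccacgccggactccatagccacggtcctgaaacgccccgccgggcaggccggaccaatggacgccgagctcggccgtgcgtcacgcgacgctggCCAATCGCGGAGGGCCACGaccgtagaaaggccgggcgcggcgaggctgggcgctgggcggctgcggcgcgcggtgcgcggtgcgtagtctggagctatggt
Counted from the first base of the window, the match begins at base 185 in HSPA5, 100 in CANX and 199 in XBP1, and HSP90B1 holds a match on each strand, from bases 57 and 162. The same search, on both strands, found the SMAD letters CAGACA in 6 of 26 windows of SMAD2/3 targets (23.1%, against 16.8% of all windows). It found the antioxidant element TGACNNNGC in 3 of 11 windows of NRF2 targets (27.3%, against 13.6%) and the sterol element TCACNCCAC in 1 of 17 windows of lipid genes (5.88%, against 1.15%). In the members' windows no match overlapped that of another element. A match of letters is a description of the window, not a site of binding.

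NRF2 targets, which serve glutathione and iron handling and the defence against oxidants, were lower in 12 of 16 and higher in 1 (list median -0.63). Beside HMOX1, the ferritin heavy chain FTH1 had 2006, 2743, 2408 and 2738 CPM in the T288P+GDF11 wells, against 5977, 5751, 5169.6 and 6182 CPM in the WT wells (log2 fold change -1.22 with SE 0.23, adjusted p = 0.000764 by edgeR). The thioredoxin reductase TXNRD1 had 131, 127, 131 and 131 CPM in the T288P+GDF11 wells, against 313, 278, 256 and 257 CPM in the WT wells (log2 fold change -1.08 with SE 0.13, adjusted p = 1.47e-05 by edgeR). NQO1 (-0.63), the cystine transporter SLC7A11 (-0.66; not called with library totals alone) and FTL (-1.34) were lower, and AKR1C3 was higher (0.30). For glucose use, 9 of 27 glycolysis and hypoxia genes were lower, among them the hexokinases HK1 and HK2 and the transporter SLC2A1 (-0.97). HK2 stood at 127 to 157 CPM in T288P+GDF11 wells, against 284 to 348 CPM in WT wells (log2 fold change -1.20 with SE 0.15, adjusted p = 3.12e-05 by edgeR). The later glycolytic genes PGK1 and LDHA were not called (-0.21 and 0.05).

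Several of these stress genes also varied between wells that had no GDF11. HMOX1 was at 67.5, 23.1, 21.6 and 21.7 CPM in the 4 T288P wells and 71.3, 61.8, 65.4 and 10.7 CPM in the 4 M452I wells, while HSPA5 was at 3069, 1916, 1643 and 1731 CPM in T288P and 2751, 2805, 2668 and 1132 CPM in M452I. T288P replicate 1 was thus the high well of its group and M452I replicate 4 the low well of its group, the same 2 wells that stand apart on the first principal component. Against untreated T288P, HMOX1 had a log2 fold change of -2.17 (adjusted p = 0.0211) and HSPA5 one of -1.10 (adjusted p = 0.00925). The part of such variation between wells in the T288P+GDF11 and WT difference was not tested.

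**Figure D5:**
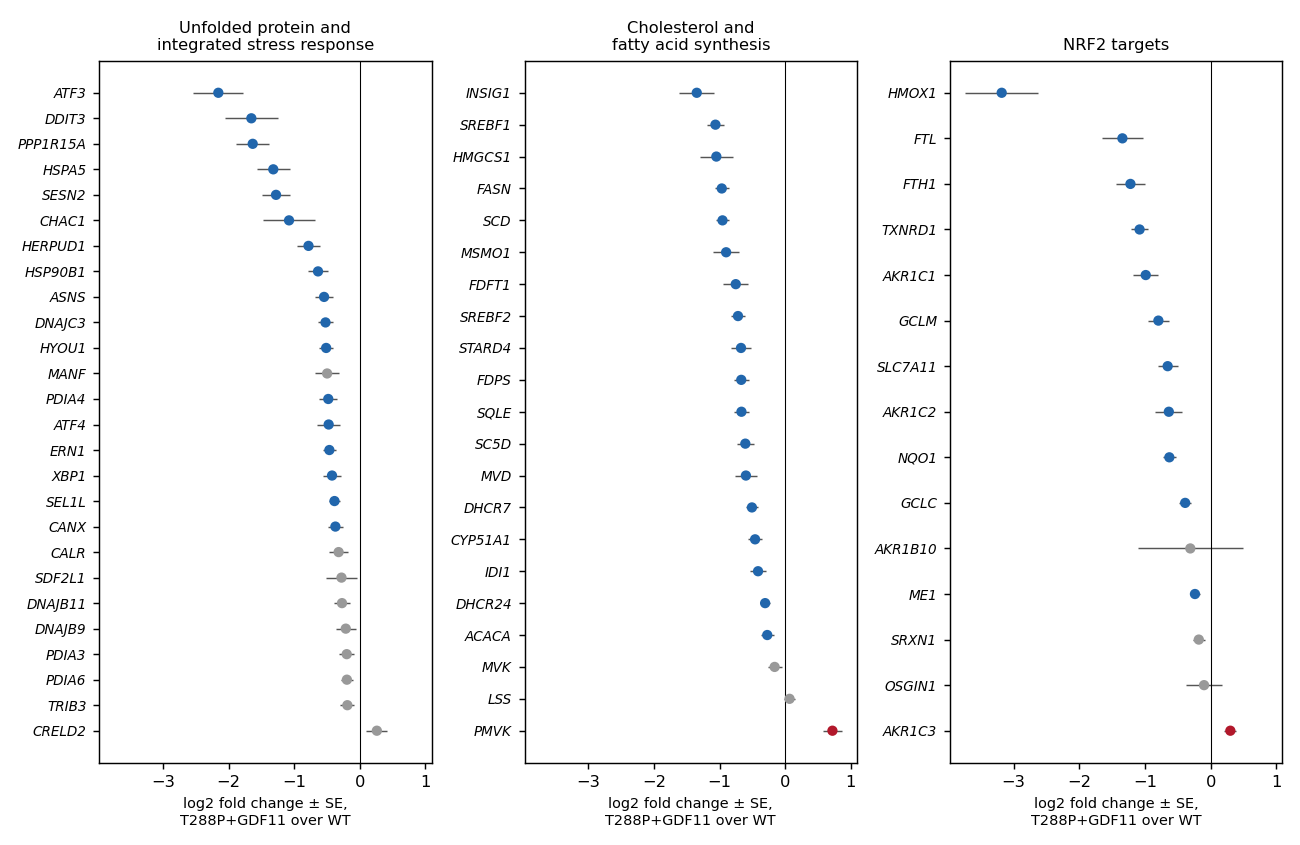
Log2 fold change of T288P+GDF11 over WT with its SE for tested members of 3 lists, blue where called lower, red where called higher and grey where not called. Nearly all points lie left of 0, with PMVK and AKR1C3 the only called members to the right.

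Cell cycle genes were called in both directions. Of 22 genes of G2 and mitosis 8 were lower and 1, HMMR, higher (list median -0.18). Of 25 genes of DNA replication 6 were higher and 1, RRM2, lower (list median 0.06), 28.0% called against 28.9% of all genes. Without single wells these counts were as low as 4 lower (WT replicate 4; 5 without WT replicate 2 or T288P+GDF11 replicate 3 or 4) and 3 higher (T288P+GDF11 replicate 1 or WT replicate 2), and with library totals alone 4 genes of mitosis were lower. MKI67, the proliferation marker, had 50.7, 31.4, 48.7 and 46.7 CPM in the T288P+GDF11 wells, against 82.2, 66.4, 79.2 and 64.3 CPM in the WT wells (log2 fold change -0.72 with SE 0.14, adjusted p = 0.000897 by edgeR). CDC20, an activator of the anaphase-promoting complex, had 29.7 to 38.5 CPM in T288P+GDF11 wells, against 89.7 to 115 CPM in WT wells (log2 fold change -1.61 with SE 0.27, adjusted p = 0.000518 by edgeR). CCNB1 (0.16) and CDK1 (0.04) were not called. MCM3, a subunit of the replicative helicase, had 20.02, 13.5, 15.5 and 12.8 CPM in the T288P+GDF11 wells, against 3.55, 5.63, 6.59 and 5.85 CPM in the WT wells (log2 fold change 1.51 with SE 0.30, adjusted p = 0.00142 by edgeR). PCNA, the polymerase clamp, had 18.4 to 22.2 CPM in T288P+GDF11 wells, against 8.95 to 12.8 CPM in WT wells (log2 fold change 0.91 with SE 0.13, adjusted p = 0.0001 by edgeR). RRM2, a subunit of ribonucleotide reductase, stood at 47.5 to 53.4 CPM in T288P+GDF11 wells, against 89.1 to 98.96 CPM in WT wells (log2 fold change -0.86 with SE 0.14, adjusted p = 0.000303 by edgeR).

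Clustered histone genes were lower in 5 of 10 (2 without T288P+GDF11 replicate 1, 3 without WT replicate 1 or with library totals alone). H1-2, a linker histone, was at 11.4 to 16.2 CPM in T288P+GDF11 wells, against 32.5 to 41.1 CPM in WT wells (log2 fold change -1.41 with SE 0.31, adjusted p = 0.00423 by edgeR). Their transcripts mostly lack poly(A) tails, so a poly(A) library counts them in part, and family members can share reads. The call of H2BC4 ended without T288P+GDF11 replicate 1 (adjusted p = 0.0603). Of 50 cytosolic ribosomal protein genes 0 were called in either direction by edgeR, DESeq2 or limma-voom, and 0 had an unadjusted edgeR p under 0.05 (list median -0.12). With the share of ribosomal protein counts, which these genes help to make up, as a covariate 48 were lower, and 1 and 3 were lower in the fits of 8 and of 14 libraries. Mitochondrially encoded genes were lower in 4 of 13, but in 0 of 13 by edgeR with library totals alone. MT-ND4, a subunit of respiratory complex I, had 3931 to 4607 CPM in T288P+GDF11 wells, against 5262 to 5568 CPM in WT wells (log2 fold change -0.38 with SE 0.10, adjusted p = 0.00721 by edgeR).

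Most markers of fibroblasts, endothelium, immune cells and adipocytes were low, with PPARG and FAP the highest of them. The fibroblast list summed to 27.1 to 32.3 CPM in T288P+GDF11 and 9.35 to 11.4 CPM in WT, with 2 of its 10 markers at 1 CPM or more and COL3A1, LUM, THY1 and PDPN at 0 in all 8 wells. FAP, a membrane protease, carried the difference at 20.5 to 26.4 CPM in T288P+GDF11 wells, against 3.61 to 6.38 CPM in WT wells (log2 fold change 2.19 with SE 0.33, adjusted p = 0.000165 by edgeR). COL1A1 was not called (0.19). The endothelial list summed to 2.16 to 3.65 CPM in T288P+GDF11 and 0.617 to 1.42 CPM in WT, with CLDN5 and EMCN at 0 in all 8 wells. The immune list summed to 1.33 to 2.76 CPM in T288P+GDF11 and 0.357 to 0.961 CPM in WT, with MS4A1 at 0. Of the 8 endothelial markers only 2 passed the low-count filter, and both were called higher. KDR, a receptor of vascular endothelial growth factor, was at 0.634 to 1.02 CPM in T288P+GDF11 wells, against 0 to 0.180 CPM in WT wells (log2 fold change 3.59 with SE 1.01, adjusted p = 0.0128 by edgeR). It had 119 counts in the T288P+GDF11 wells and 10 in the WT wells. Of these 8 wells only those of T288P+GDF11 could carry it past the filter, so its call says little about the list. The call of PECAM1 (1.05) ended without T288P+GDF11 replicate 1 or WT replicate 2 or 4 (highest adjusted p = 0.163). The adipocyte list summed to 27.6 to 33.6 CPM in T288P+GDF11 and 42.5 to 44.97 CPM in WT, nearly all of it from PPARG, with ADIPOQ and LEP at 0. The luminal list summed to 523 to 683 CPM in T288P+GDF11 and 999 to 1341 CPM in WT, with KRT19 and ESR1 below 1 CPM.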

How the data were processed

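RNA was measured in 16 wells of MCF10DCIS.com cells, 4 per condition, grouped by GEO's labels. The deposited table holds whole-number counts of reads per gene for 78894 genes. Per the submitters' processing notes, the authors' tools were HISAT2 and StringTie 2.2.1 on GRCh38; how reads were counted, and whether by strand, was not given in the sources used here. Nearly as many counts were 2 as were 1, so mates of a pair may have been counted separately, which would make counts larger than the number of fragments. Of the 249 genes the rule names, 12 share exon bases with another gene on the same strand and 47 on the opposite strand, and reads of such genes may be mixed.

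From the counts, R 4.3.3 with edgeR 4.0.16 gave TMM factors, a filter (filterByExpr, minimum count 10) that kept 16790 genes, and a robust quasi-likelihood fit of all 16 libraries, which share the spread. P-values were adjusted by Benjamini-Hochberg over those genes, and the threshold for a call was 0.05. The SE was taken as the size of the log2 fold change over the root of its F statistic. CPM are counts per M counts scaled by TMM. DESeq2 1.42.0, limma-voom (limma 3.58.1), other scalings, filters and sample sets, and leaving out each well, were tried as alternatives. On simulated counts for 16355 genes, the fit recovered 24.1% of 54 genes changed 1.5-fold, 54.7% of 75 changed 2-fold and 77.8% of 63 changed 4-fold, with 6 false calls among 109. Far fewer genes were changed there than were called in the data, and their direction was random. These rates therefore need not hold for the present contrast.

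The comparison, the gene lists and the rule for named genes were chosen with earlier results of these data known. The rule took PCSK5, GDF11, 12 genes at each end of the fold changes among called genes with at least 3 CPM and no overlap, the 8 with the smallest adjusted p in each direction at 20 CPM or more, and up to 4 called members per list. It also took the TGF-beta pathway lists, 10 marker genes and the 7 genes earlier called in T288P against WT. Other list members that are named were chosen after their values were seen, and some genes the rule takes are not reported here. Positions are from GENCODE 29 on GRCh38, which matched 15639 of the tested genes (93.1%), and promoter windows from RefSeq on GRCh38.p14.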

Additional observations from a re-analysis of the deposited data

Results flagged for a closer look

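Among 350 groups of 4 wells examined, 15 held a well farther from its nearest neighbour than Dixon's limit allows for the group's range, where chance flags about 1 in 20. The values below are CPM unless a percent is given, and none of the differences between conditions was retested for them beyond leaving out wells.

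Most of the flagged T288P+GDF11 wells differed by little from the others of the group. Replicate 2 had ST14 at 92.4 (others 84.6 to 85.7), TXNRD1 at 127 (others 131 to 131) and KLK5 at 3.48 (others 2.82 to 2.91). Replicate 4 had HK2 at 157 (others 127 to 129.6), ID3 at 16.5 (others 23.4 to 23.6) and SMAD7 at 4.40 (others 4.97 to 5.07). Replicate 3 had GDF11 at 5.95 (others 7.32 to 7.54). In replicate 1, PECAM1 was at 2.73 (others 1.33 to 1.44), SLC35F3 at 5.56 (others 6.03 to 6.07) and the share of counts from mitochondrially encoded genes at 4.88% (others 4.39 to 4.40%).

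In WT, replicate 2 had GDF15 at 12.05 (others 7.42 to 7.96), and it was the only WT well with reads of DCN, 0.182 against 0 in the others. Replicate 3 had CDH19 at 20.1 (others 10.003 to 11.03) and CD24 at 229.5 (others 238 to 239), and replicate 1 had FASN at 588 (others 527 to 536). GDF15, CDH19 and FASN kept their calls without each of these wells.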

How the results depend on the processing

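The 4846 calls of T288P+GDF11 against WT numbered 5454 with DESeq2, 5184 with limma-voom, 4853 with RLE factors, 4937 with upper quartile factors, 3881 without a low-count filter and 4808 with at least 50 counts in 4 libraries. A fit of the 8 libraries gave 5953 and one of 14 libraries 6249. The count moved most with the share of ribosomal protein genes as a covariate, to 7514, and with a fold change of at least 2 required as well, to 1109. Library totals without TMM, an alternative added after seeing the data, gave 4866 calls, 3759 of the 4846 among them and 1 in the opposite direction. Leaving out single wells gave 3672 (without WT replicate 2) to 4522 (without WT replicate 3).

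With the replicate number as a replicate block 4566 genes were called, 4446 of the 4846 among them. Deviations of same-numbered T288P+GDF11 and WT wells correlated at -0.083 to -0.014, so these values show no pairing by number. The labels do not say whether a number marks a shared day or batch.

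Of the values of printed genes under the alternatives, 4011 kept direction and side of the threshold, 136 lost the call, 44 gained one and 17 changed sign, all of the last for genes not called. The log2 fold change of KRT14 was 0.00781 with limma-voom, 0.064 with upper quartile factors, 0.023 without the filter, 0.028 with the stricter filter, 0.000941 in the fit of 8 libraries, 0.00723 with the replicate block, 0.17 with library totals alone and -0.087 to 0.11 without single wells. The log2 fold change of PCSK5 was 0.068 with the covariate, 0.023 with library totals alone and -0.26 to 0.034 without single wells, and the log2 fold change of TGFBR1 0.037 with library totals alone. The cause of these changes was not tested. Library totals alone ended the calls of ACVR1B, AGRN, CXCL16, IL1RN, ITGB1, LAMC1, LTBP3, LXN, MT-ND4, SLC7A11, SMAD2, SMAD4, WNT9A and XBP1. No low-count filter ended those of BICC1, COL6A3, INHBA, ITGB1, LTBP1, LTBP3, LXN, PECAM1, SMAD4, THBS1, TIMP1, TPM1 and WNT9A, upper quartile factors those of ITGB1, LTBP3, WNT9A and XBP1, the fit of 14 libraries those of LTBP1 and WNT9A, the fit of 8 that of PPM1A, and the replicate block those of DCN, S100A10 and WNT9A. With the covariate, 19 of 27 glycolysis and hypoxia genes and 12 of 20 lysosomal genes were lower. Genes below about 1 CPM are limited by depth, and wells of 1 line per allele limit what the p-values cover.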

Other observations

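Single genes of some lists outside the report's main themes also differed. Of 11 targets and partners of YAP, a coactivator that responds to cell contact, 3 were lower and 1 higher (0 higher without WT replicate 2 or 4, 2 without WT replicate 3, 4 with the ribosomal protein covariate), 36.4% called against 28.9% of all genes. The kinase LATS2, which restrains YAP, stood at 19.6 to 22.9 CPM in T288P+GDF11 wells, against 35.8 to 50.5 CPM in WT wells (log2 fold change -0.98 with SE 0.12, adjusted p = 3.12e-05 by edgeR). The transcription factor TEAD1, its DNA-binding partner, stood at 72.2 to 102 CPM in T288P+GDF11 wells, against 140.1 to 169 CPM in WT wells (log2 fold change -0.77 with SE 0.11, adjusted p = 6.42e-05 by edgeR), and neither gene overlapped between the conditions. Lysosomal genes were lower in 6 of 20 and higher in 2 (40% called, against 28.9% of all genes). Without single wells 4 to 5 were lower, and with library totals alone 4. Among the lower ones was the protease CTSD at 139.7 to 174 CPM in T288P+GDF11 wells, against 234 to 265 CPM in WT wells (log2 fold change -0.66 with SE 0.12, adjusted p = 0.000663 by edgeR). Targets of p53 split, 4 of 16 lower and 5 higher (2 higher without T288P+GDF11 replicate 1, 3 without T288P+GDF11 replicate 3 or WT replicate 2 or 4). SESN2, a stress-induced sestrin, was at 8.58 to 11.6 CPM in T288P+GDF11 wells, against 19.04 to 27.9 CPM in WT wells (log2 fold change -1.28 with SE 0.21, adjusted p = 0.000276 by edgeR), whereas TP53I3 was at 110.2 to 130.2 CPM in T288P+GDF11 wells, against 56.96 to 80.4 CPM in WT wells (log2 fold change 0.85 with SE 0.13, adjusted p = 0.000131 by edgeR).

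The following values were picked after they were seen and carry no test. M452I replicate 4, which had no GDF11, lay near the T288P+GDF11 wells on the first principal component and in several stress genes. It had 10.7 CPM of HMOX1, 1132 CPM of HSPA5, 3.25 CPM of GDF15 and 628 CPM of THBS1. In other genes it lay near the rest of the untreated wells, with 650.4 CPM of VIM, 24.6 CPM of CEACAM5, 105 CPM of HAS3 and 0.844 CPM of SCG5. The lowest T288P+GDF11 well had 1507 CPM of VIM and the highest had 7.09 CPM of CEACAM5.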
